A study of Mus musculus with 4 samples.

Results

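Heat shock proteins and J-domain chaperones keep proteins folded, and 72 genes with their symbols were measured among 19938 genes in fetal mouse brain. They were chosen by symbol, not by value: a probe set was taken when its single gene symbol began with Dnaja, Dnajb, Dnajc, Hspa, Hspb or Hsph, or was Hsp90aa1, Hsp90ab1, Hsp90b1, Hspd1 or Hspe1. These symbols covered 95 of 35557 probe sets, and each gene was represented by the probe set with the highest mean over the 4 arrays. Of the 72, 3 belong by name only: Hspbp1 and Hspbap1, which bind heat shock proteins, and Hspb11, which is a subunit of the transport machinery of cilia. Hsp90ab1 and Hspa1b also meet the rule by symbol, but no probe set in the annotation used carries either symbol alone, so neither was analysed here.

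The arrays held RNA of C57BL/6J mouse fetuses at embryonic day 18, and the 4 groups were hippocampus after maternal ethanol, hippocampus after maternal phosphate-buffered saline (PBS), forebrain after maternal ethanol and forebrain after maternal PBS. Dams in the ethanol groups received a daily 2.9 g/kg, as 15% ethanol by volume, into the stomach on 5 days, embryonic days 8 to 12, and control dams received PBS over the same days. Each group was 1 array, so a difference between ethanol and PBS within a tissue has no replicate check, and it is given as a difference of 2 log2 values with no test. Whether RNA was pooled over embryos, and how embryos were spread over litters, is not stated in the labels, and litter and treatment cannot be told apart. Among all genes past the filter described below, the Y-linked Eif2s3y had the highest ethanol difference in forebrain, at 0.89. It was also the highest for hippocampus minus forebrain after PBS, at 0.85. The mix of embryo sexes on each array was not tested, and it cannot be told apart from treatment or tissue. The tissue is a mixture of cells, in which fewer cells of a type and less RNA per cell cannot be told apart.

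Chaperones of the HSP70 family bind unfolded stretches of protein and release them in a cycle driven by ATP. J-domain proteins, the DNAJA, DNAJB and DNAJC families, start that cycle by stimulating the ATPase of HSP70 and bring it to particular clients and places in the cell, while HSP110 proteins exchange its nucleotide. HSP90 finishes the folding of kinases and steroid receptors, the chaperonin Hspd1 with its lid Hspe1 folds proteins inside mitochondria, and small heat shock proteins hold unfolded proteins without using ATP. The transcription factor Hsf1 raises many of these genes after heat, ethanol and other insults to proteins.

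The tissue labels were set against marker genes. Of 7 hippocampal field markers, 2 were higher in hippocampus than in forebrain on average over both treatments, with a median of -0.04. Their mean levels after PBS were 8.34 in hippocampus and 8.25 in forebrain. After ethanol they were 8.23 in hippocampus and 8.31 in forebrain. Averaged over both treatments these markers did not bear out the label, while after PBS alone their mean was higher in hippocampus. Among genes past the filter described below, all 10 striatal projection neuron markers were higher in hippocampus after ethanol than after PBS, with a median of 0.44, and 7 of 8 meningeal fibroblast markers were higher there too, with a median of 0.29. The 8 kept choroid plexus and ciliated cell markers were all lower, with a median of -0.26, and 9 of 12 progenitor markers were lower, with a median of -0.18. Of 6 telencephalon and neuron markers 5 were lower, with a median of -0.15, led by Neurod6 at -0.56 and Emx1 at -0.35. The medians of endothelial, pericyte and microglial markers lay between -0.09 and 0.05 there. In forebrain the striatal median was -0.03 and the meningeal median -0.15. The part of these differences in the chaperone values below was not tested. Array medians over all probe sets ran from 7.11 to 7.13, while the median over kept genes was 8.57 on the hippocampus ethanol array and 8.66 to 8.68 on the others.

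At embryonic day 18 few chaperone genes were apart by more than 1.3-fold between ethanol and PBS. Of the 72 genes, 53 passed a filter on low values, a mean over the 4 arrays of at least 7.11 on the log2 scale, which is the median of all probe sets. In hippocampus 1 of the 53, Dnajc12, was at least 1.3-fold higher after ethanol (background 2.16% of 11013 genes) and 0 were at least 1.3-fold lower (background 3.36%). In forebrain 0 were at least 1.3-fold higher (background 0.154%) and 1, Dnajb6, was at least 1.3-fold lower (background 0.0908%). The members' shares lie near or below the background in hippocampus, and in forebrain they rest on 1 gene.

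Over both tissues, treatment and tissue were fitted together with limma, in which the difference between the tissues' ethanol effects serves as error. After Benjamini-Hochberg adjustment over 11013 genes, 0 of the 53 genes were called higher and 0 lower at 0.05 (background 0% each way). At an unadjusted p of at most 0.05, Dnajc12 was higher (background 3.41%) and Dnajb6, Dnajc14, Dnajc8 and Hspa12a were lower (background 6.36%). The lowest adjusted p by limma was 0.51 among these genes and 0.104 among all genes.

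**Figure D1:**
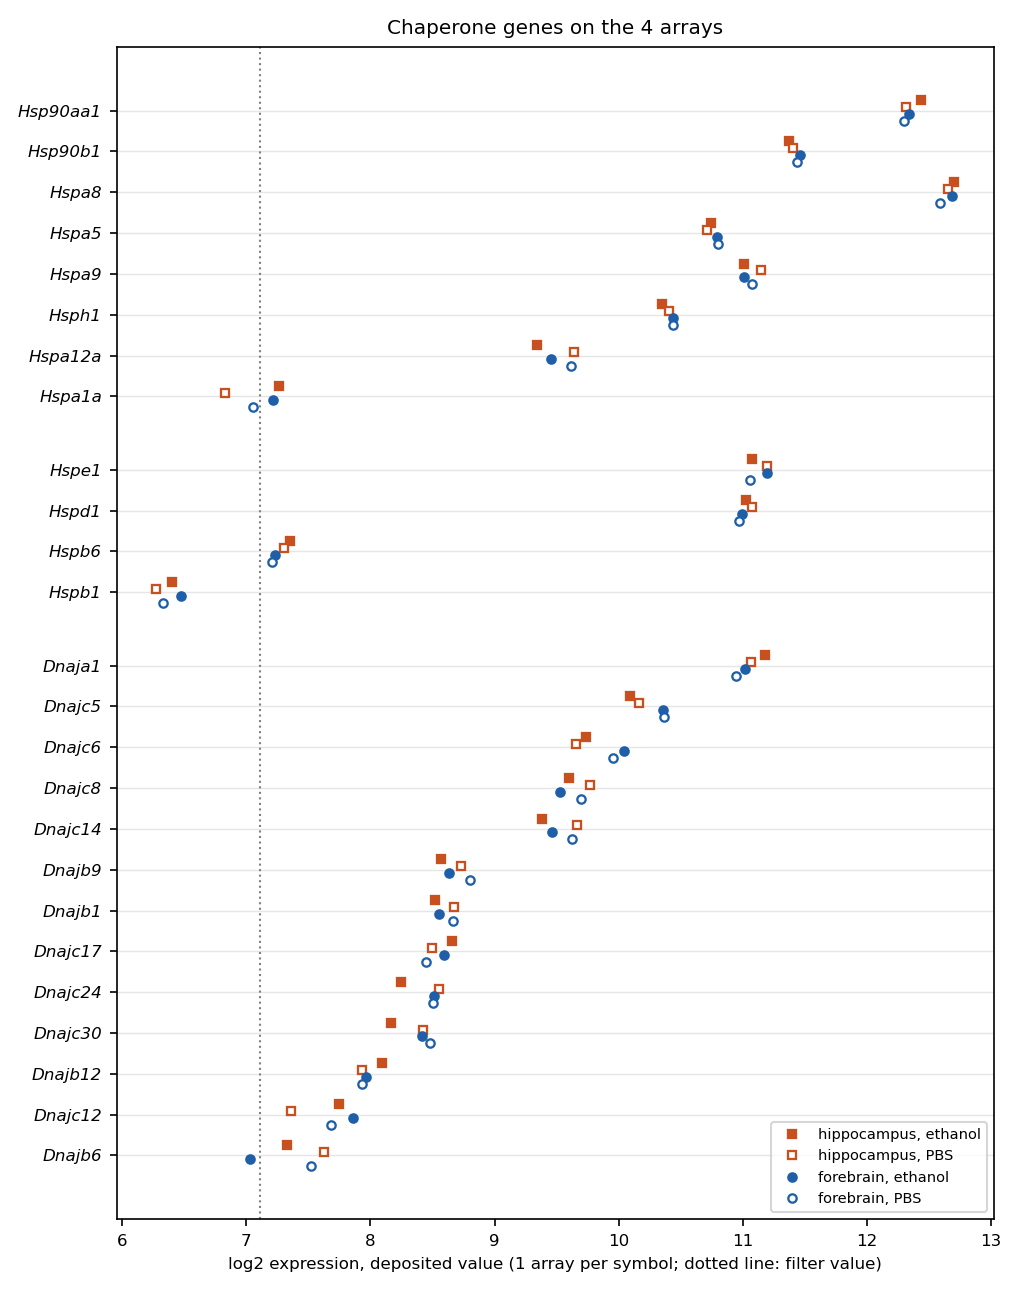
Deposited log2 expression (horizontal axis) of named chaperone genes on the 4 arrays, with hippocampus as squares and forebrain as circles, ethanol filled and PBS open. Each symbol is 1 array, the dotted line is the filter value of 7.11, and small vertical offsets only separate the symbols. Dnajb6 lies lower after ethanol in both tissues, Dnajc12 lies lowest on the hippocampus PBS array, and the symbols of Hsp90b1, Hspa5 and Hsph1 nearly coincide.

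Dnajb6, a cytosolic and nuclear J-domain protein known for holding back the aggregation of polyglutamine proteins, had the largest mean difference of the 53. It measured 7.33 on the hippocampus ethanol array, against 7.62 on the hippocampus PBS array. In forebrain it measured 7.03 after ethanol, against 7.52 after PBS. Both ethanol arrays therefore lay below both PBS arrays, and the groups did not overlap. How many kept genes separate in this way, by treatment or by tissue, was not counted, so such separation has no background here or below. Of all kept genes, 61.4% had ethanol differences of the same sign in both tissues, as Dnajb6 did. The difference was -0.30 in hippocampus and -0.50 in forebrain, and its mean by limma was -0.40 ± 0.0908 (SE, 4 arrays; unadjusted p = 0.00274, adjusted p = 0.51).

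Dnajc12, a J-domain protein that in humans serves the hydroxylases of phenylalanine, tyrosine and tryptophan, lay on the other side. It measured 7.74 after ethanol in hippocampus, against 7.36 after PBS, and 7.86 after ethanol in forebrain, against 7.68 after PBS. The hippocampus PBS array was the low one, and the other 3 arrays lay within 0.18 of each other. The differences were 0.38 and 0.18, with a limma mean of 0.28 ± 0.0905 (SE; adjusted p = 0.51).

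Hspa12a, a distant HSP70 relative found in brain, measured 9.34 after ethanol and 9.64 after PBS in hippocampus, and 9.45 after ethanol and 9.61 after PBS in forebrain. Both ethanol arrays lay below both PBS arrays, by 0.30 and 0.16, and the limma mean was -0.23 ± 0.0718 (SE; adjusted p = 0.51). Dnajc14, a J-domain protein of the endoplasmic reticulum membrane, followed nearly the same pattern, with 9.38 after ethanol against 9.67 after PBS in hippocampus and 9.46 after ethanol against 9.63 after PBS in forebrain. Dnajc8, which is found with the splicing machinery, measured 9.60 after ethanol against 9.77 after PBS in hippocampus and 9.52 after ethanol against 9.70 after PBS in forebrain. The limma means were -0.22 for Dnajc14 and -0.17 for Dnajc8, both with an adjusted p of 0.51.

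**Figure D2:**
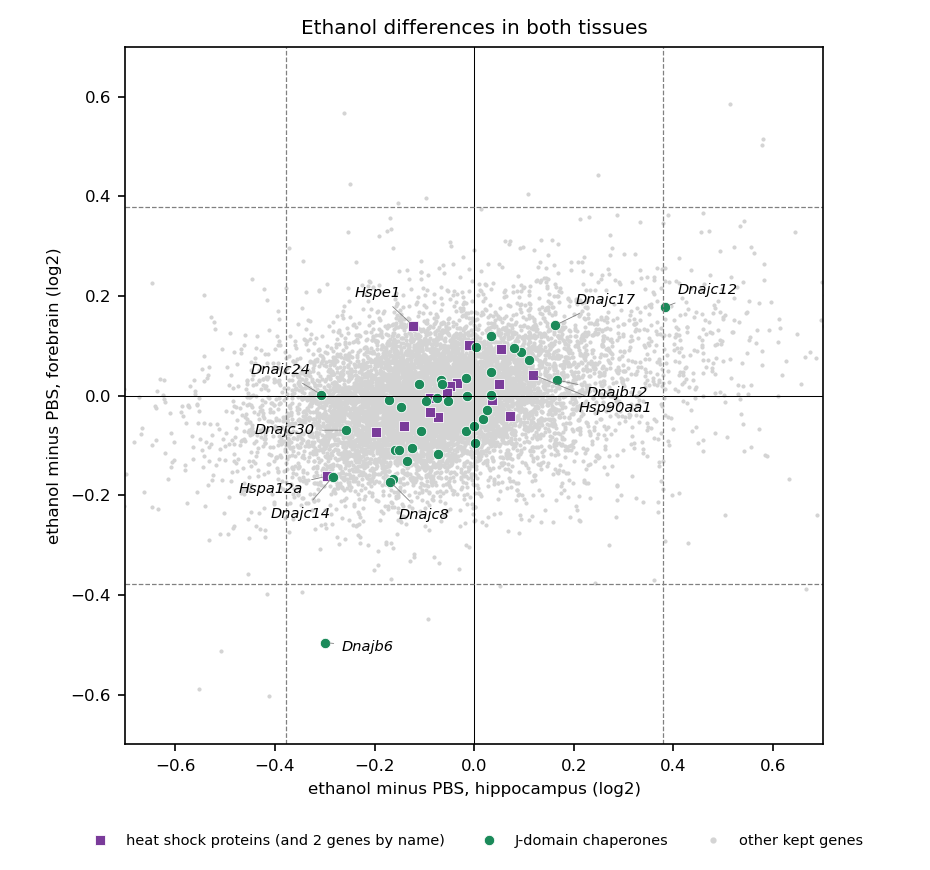
Ethanol minus PBS (log2) in hippocampus (horizontal) and forebrain (vertical) for the kept genes, with heat shock proteins as squares, J-domain chaperones as circles and other kept genes in grey; broken lines mark 1.3-fold. Axes end at 0.7, which leaves 54 grey genes and 0 chaperone genes outside, and Dnajb6 and Dnajc12 are the labelled points past a broken line.

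Several members that are classical targets of the heat shock response were read against their promoters. RefSeq windows (GRCm38.p6, 250 bases before to 50 bases after a gene's start) were available for 59 of the 72 genes, in 76 windows. Each was searched on both strands for a 3-unit heat shock element, GAA and TTC in turn with 2 bases of any kind between them, starting with either. It was found in 0.603% of 32851 windows of all genes and in 6 member windows, those of Dnajb6, Hspd1, Hspe1 and Hsph1. The shorter 2-unit form, GAANNTTC or TTCNNGAA, which every 3-unit match contains, was in 15.1% of all windows and in 22.4% of member windows. A match is a run of letters and not a shown binding site. The windows below are printed because they belong to the gene with the largest mean ethanol difference among the 53 and to 3 inducible chaperones, 5′ to 3′ on the gene's strand, with the longest matching element in capitals. They are chr5:29735648-29735947 on the plus strand for Dnajb6, chr5:149636266-149636565 on the minus strand for Hsph1, chr1:55087898-55088197 on the plus strand for Hspe1 and chr17:34972107-34972406 on the minus strand for Hspa1a.
Dnajb6: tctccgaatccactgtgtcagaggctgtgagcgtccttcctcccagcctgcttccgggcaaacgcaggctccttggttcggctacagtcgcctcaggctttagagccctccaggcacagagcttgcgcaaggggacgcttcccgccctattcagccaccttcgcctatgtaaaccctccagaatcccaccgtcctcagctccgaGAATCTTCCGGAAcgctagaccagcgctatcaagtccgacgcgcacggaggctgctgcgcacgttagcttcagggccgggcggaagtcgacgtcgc
Hsph1: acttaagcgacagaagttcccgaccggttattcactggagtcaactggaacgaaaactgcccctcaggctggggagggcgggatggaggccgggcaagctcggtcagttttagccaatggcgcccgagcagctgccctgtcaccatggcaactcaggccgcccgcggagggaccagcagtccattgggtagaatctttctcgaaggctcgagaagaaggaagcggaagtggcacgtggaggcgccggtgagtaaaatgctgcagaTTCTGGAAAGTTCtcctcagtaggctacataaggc
Hspe1: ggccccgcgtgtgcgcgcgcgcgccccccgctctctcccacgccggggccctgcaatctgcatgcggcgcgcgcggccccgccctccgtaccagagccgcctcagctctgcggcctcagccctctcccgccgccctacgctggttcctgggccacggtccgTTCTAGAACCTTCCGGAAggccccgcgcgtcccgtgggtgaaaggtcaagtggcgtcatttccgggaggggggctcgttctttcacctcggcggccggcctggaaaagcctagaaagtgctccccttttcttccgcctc
Hspa1a: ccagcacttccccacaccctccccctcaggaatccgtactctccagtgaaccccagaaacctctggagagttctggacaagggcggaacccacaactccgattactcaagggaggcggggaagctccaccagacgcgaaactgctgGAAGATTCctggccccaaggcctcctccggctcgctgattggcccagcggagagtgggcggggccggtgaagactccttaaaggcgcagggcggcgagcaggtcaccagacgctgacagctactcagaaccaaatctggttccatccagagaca

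In Dnajb6 the element begins 46 bases before the start site, at -46. In Hsph1 it begins 15 bases after the start site. In Hspe1 2 overlapping matches begin at -89 and -84. Hspd1 and Hspe1 are head-to-head neighbours, and their windows share 285 bases and the same run, so they are not independent matches. In Hspa1a only the 2-unit form was found, at -104. After ethanol all 4 genes with the 3-unit element had lower values in hippocampus, as did 7632 of the 11013 kept genes, and Hspd1 and Hsph1 were higher there after median centring. In forebrain Dnajb6 was lower and the other 3 were higher, Hspd1 by 0.02, Hspe1 by 0.14 and Hsph1 by 0.01, and Hspd1 and Hsph1 were lower there after quantile normalization. Hsph1, the HSP110 nucleotide exchange factor, measured 10.35 after ethanol against 10.40 after PBS in hippocampus and 10.44 in both forebrain groups.

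Hspa1a, the stress-inducible HSP70, lay just below the filter, with a mean of 7.09. It measured 7.26 after ethanol in hippocampus, against 6.83 after PBS, and 7.21 after ethanol in forebrain, against 7.05 after PBS. The hippocampus PBS array was the low one, and both ethanol arrays lay above both PBS arrays, by 0.44 and 0.16. Genes this low were often higher on the hippocampus ethanol array: 67% of the 8925 genes below the filter were higher there, with a median of 0.08, and 6.26% were at least 1.3-fold higher. Hspb1, the small heat shock protein that Hsf1 induces, measured 6.40 after ethanol against 6.28 after PBS in hippocampus and 6.47 after ethanol against 6.33 after PBS in forebrain.

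The cytosolic chaperones Hspa8 and Hsp90aa1 and the J-domain proteins Dnaja1 and Dnajb1 differed by at most 0.16 between ethanol and PBS. Hspa8, the HSP70 of the cytosol in unstressed cells, measured 12.70 after ethanol and 12.65 after PBS in hippocampus, and 12.69 after ethanol and 12.59 after PBS in forebrain. Both ethanol arrays were above both PBS arrays, and the limma mean was 0.07 ± 0.032 (SE; adjusted p = 0.514). Hsp90aa1, the inducible cytosolic HSP90, measured 12.43 after ethanol against 12.32 after PBS in hippocampus and 12.34 after ethanol against 12.30 after PBS in forebrain. All 3 of its probe sets were higher after ethanol in both tissues, by 0.11 to 0.25 in hippocampus and 0.04 to 0.13 in forebrain, and the limma adjusted p was 0.526. Under quantile normalization the hippocampus difference of Hspa8 was -0.03 and that of Hsp90aa1 was 0.02. Dnaja1, the J-domain partner of Hspa8 in the cytosol, was higher after ethanol by 0.11 in hippocampus and 0.07 in forebrain (-0.01 there under quantile normalization), while Dnajb1, a J-domain protein that Hsf1 induces together with HSP70, was lower by 0.16 and 0.11.

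Chaperones of the endoplasmic reticulum, the compartment where secreted proteins fold, showed no common direction either. Hspa5, the reticulum's HSP70 and the usual marker of its stress, measured 10.75 after ethanol and 10.71 after PBS in hippocampus, and 10.79 after ethanol and 10.80 after PBS in forebrain. Hsp90b1, the HSP90 of the same compartment, measured 11.37 after ethanol against 11.40 after PBS in hippocampus and 11.46 after ethanol against 11.44 after PBS in forebrain. The ER stress response element, CCAAT, 9 bases of any kind and then CCACG, was searched on both strands of the same windows. It was in 0.119% of all windows and in those of 3 members, Hspa5, Hsp90b1 and Dnajc3, the last a J-domain protein also known as an inhibitor of the kinase that stops translation under reticulum stress. They are printed because these are textbook targets of that response, and the Hspa5 window is chr2:34771840-34772139 on the plus strand. For Hsp90b1, at chr10:86705638-86705656 and chr10:86705533-86705551 on the minus strand, and for Dnajc3, at chr14:118937827-118937845 on the plus strand, only the element is given.
Hspa5: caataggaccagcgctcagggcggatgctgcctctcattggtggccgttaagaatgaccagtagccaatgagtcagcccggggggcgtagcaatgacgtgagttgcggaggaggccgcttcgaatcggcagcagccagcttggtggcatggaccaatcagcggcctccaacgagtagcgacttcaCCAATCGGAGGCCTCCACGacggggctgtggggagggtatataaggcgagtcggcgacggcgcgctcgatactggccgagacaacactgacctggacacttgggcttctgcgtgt
Hsp90b1: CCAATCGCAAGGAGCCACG
Hsp90b1: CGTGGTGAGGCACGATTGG
Dnajc3: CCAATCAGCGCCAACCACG

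All 3 genes with this element differed by at most 0.06 between ethanol and PBS in either tissue. Dnajb9, a J-domain protein of the reticulum that is a target of the same stress response, measured 8.57 after ethanol and 8.73 after PBS in hippocampus, and 8.63 after ethanol and 8.80 after PBS in forebrain, so that both ethanol arrays lay below both PBS arrays. Dnajb12, a membrane J-domain protein of the reticulum, was 0.17 higher after ethanol in hippocampus and 0.03 higher in forebrain. Of 13 kept members placed in the reticulum, 5 were higher and 8 lower after ethanol in each tissue, with medians of -0.06 in hippocampus and -0.01 in forebrain. Of all 11013 kept genes, 7632 were lower in hippocampus and 5927 in forebrain. Median centring turned the split of the 13 to 10 higher and 3 lower in hippocampus and to 8 higher and 5 lower in forebrain. Quantile normalization gave 8 higher and 5 lower in hippocampus and 5 higher and 8 lower in forebrain.

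In the mitochondrion, Hspd1 measured 11.03 after ethanol against 11.08 after PBS in hippocampus and 10.99 after ethanol against 10.97 after PBS in forebrain. Hspe1, its lid, measured 11.07 after ethanol and 11.20 after PBS in hippocampus, but 11.20 after ethanol and 11.06 after PBS in forebrain, so the tissues went opposite ways, by -0.12 and 0.14. Both of its probe sets had these signs, and the difference between the effects, -0.26, was not tested. Hspa9, the mitochondrial HSP70, was lower after ethanol by 0.14 in hippocampus and 0.06 in forebrain. Dnajc30, a mitochondrial J-domain protein linked to respiratory complex I, measured 8.16 after ethanol in hippocampus, against 8.42 after PBS, and 8.41 in forebrain after ethanol, against 8.48 after PBS.

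Dnajc24, a J-domain protein needed to make diphthamide, a modified residue on translation elongation factor 2, was low on the hippocampus ethanol array alone. It measured 8.24 there, against 8.55 in hippocampus after PBS, and 8.51 in both forebrain groups. The ethanol difference was -0.31 in hippocampus and 0.00 in forebrain. At 1.2-fold, Dnajc24 was 1 of 4 members lower in hippocampus, with Dnajb6, Dnajc14 and Hspa12a (7.55% of the 53, background 11.2%). The other counts at 1.2-fold were 1 higher in hippocampus, Dnajc12 (background 4.49%), 0 higher in forebrain (background 0.699%) and 1 lower in forebrain, Dnajb6 (background 0.508%).

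The J-domain proteins of the ribosome and nucleus and some of the reticulum filled in the range between. Dnajc17, which is found with the spliceosome, measured 8.66 after ethanol and 8.50 after PBS in hippocampus, and 8.59 after ethanol and 8.45 after PBS in forebrain. Both ethanol arrays of Dnajc17 lay above both PBS arrays. Dnajc10, a reductase of the reticulum that opens disulphide bonds of misfolded proteins, was 0.09 higher after ethanol in both tissues. Dnajc1, a reticulum membrane protein that contacts ribosomes, measured 8.03 after ethanol and 8.20 after PBS in hippocampus, and 7.94 after ethanol and 7.95 after PBS in forebrain, so the hippocampus PBS array stood above the other 3. Dnajc15 and Dnajc19, both of the mitochondrial import motor, were higher after ethanol in forebrain by 0.12 and 0.10, and by 0.03 and 0.00 in hippocampus. Hspa4l, an HSP110 protein, differed by 0.10 in forebrain and by -0.01 in hippocampus.

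Hspbp1, Hspbap1, Dnajb5, Dnajb4 and Dnajc7 differed by at most 0.20 between ethanol and PBS in either tissue. Hspbp1, a nucleotide exchange factor for HSP70, was 0.07 higher after ethanol in hippocampus and 0.04 lower in forebrain. Hspbap1, which is known to bind the small heat shock protein Hspb1, measured 7.82 after ethanol and 8.01 after PBS in hippocampus, and 7.86 after ethanol and 7.94 after PBS in forebrain. Among the cytosolic DNAJB genes Dnajb5 was lower after ethanol by 0.13 in both tissues, and Dnajb4 differed by -0.02 in hippocampus and 0.04 in forebrain. Dnajc7, which carries clients between HSP70 and HSP90, was higher by 0.03 in hippocampus and 0.05 in forebrain.

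**Figure D3:**
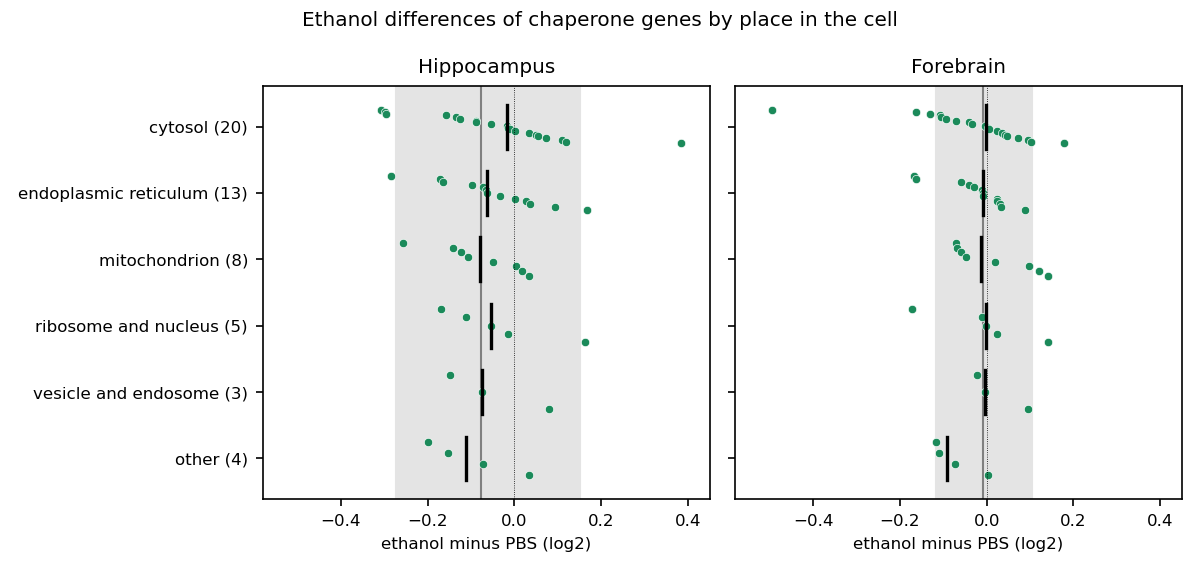
Ethanol minus PBS (log2, horizontal axis) for the 53 kept chaperone genes by their place in the cell, with 1 point a gene and a black bar at each group's median. The grey band runs from the 10th to the 90th percentile of all 11013 kept genes and the grey line is their median, and the medians of the 5 named places lie near that line in both tissues.

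Read as a whole, the 53 genes lay close to the background. After ethanol 19 of them had higher and 34 had lower values in hippocampus, at a median of -0.05, and the median of all kept genes was -0.08. In forebrain the split was 23 higher and 30 lower, and the median was -0.01 for the members and for all genes. Centring each array on its median over kept genes turned the hippocampus split to 35 higher and 18 lower. Quantile normalization gave 25 higher and 28 lower there. The sign changes under either scaling were all of members whose difference had been under 0.1. The median range of a member over the 4 arrays was 0.149, against 0.194 for all kept genes and 0.168 for the 4366 kept genes at least as high as the members' median.

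The J-domain proteins of the DNAJB family were lower after ethanol in 8 of 9 genes in hippocampus, with a median of -0.12, a count of 5 of 9 after centring and 6 of 9 after quantile normalization. Of all kept genes 7632 of 11013 were lower there. In forebrain 6 of 9 were lower, with a median of -0.11, as were 5927 of 11013 kept genes. The 4 DNAJA genes had 3 higher and 1 lower in hippocampus, and 1 higher and 3 lower in forebrain. Of 24 kept DNAJC genes, 10 were higher in hippocampus and 11 in forebrain, with medians of -0.06 and -0.00.

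Of the 19 members below the filter, 6 are small heat shock proteins, several of them known from muscle, heart or testis, and 4 are HSP70 genes. With no filter on low values 5 members were at least 1.3-fold higher in hippocampus (background 4% of 19938 genes), Dnajc12 and 4 of these. In hippocampus 16 of the 19 were higher after ethanol, with a median of 0.17, and the highest differences were those of Dnajb7 at 0.59, Hspb9 at 0.53, Dnajc5b at 0.49 and Hspa1a at 0.44. In forebrain 12 of 19 were higher, with a median of 0.05. Of all 8925 genes below the filter, 67% were higher in hippocampus (median 0.08) and 51.4% in forebrain (median 0.01). In hippocampus 6.26% of these 8925 genes were at least 1.3-fold higher. Dnajb7 measured 4.50 after ethanol and 3.91 after PBS in hippocampus, levels far under the filter value. The filter separated close values: Hspa1a at 7.09 and Hspb8 at 7.08 lay just below it, and Dnajb2 at 7.15 and Dnajc25 at 7.27 just above.

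Between hippocampus and forebrain, the 2 members past the filter with the largest mean difference, Dnajc6 and Dnajc5, belong to clathrin-coated and synaptic vesicles. Over both treatments limma called 0 of the 53 at an adjusted p of 0.05 (background 0.109% higher and 1.02% lower in hippocampus). At an unadjusted p of at most 0.05, Dnaja1 was higher in hippocampus (background 3.27%) and Dnajc5, Dnajc6 and Dnajc12 were lower (background 11.9%). Dnajc6, auxilin, which recruits Hspa8 to strip clathrin from vesicles in neurons, measured 9.74 in hippocampus against 10.05 in forebrain after ethanol, and 9.66 in hippocampus against 9.95 in forebrain after PBS. Both hippocampus arrays lay below both forebrain arrays, and the mean was -0.30 ± 0.0635 (SE; unadjusted p = 0.00176, adjusted p = 0.0871, 0.0186 to 0.148 over the alternatives, with a call under quantile normalization and under a 75th percentile filter). Dnajc5, cysteine string protein, which works with Hspa8 at the synaptic vesicle, measured 10.09 in hippocampus against 10.36 in forebrain after ethanol and 10.16 in hippocampus against 10.36 in forebrain after PBS (mean -0.24 ± 0.06, SE; adjusted p = 0.129, 0.0356 to 0.219 over the alternatives, with a call under quantile normalization).

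Markers of other cells also differed between the tissues. In hippocampus 8 of 8 meningeal fibroblast markers were lower (median -0.86, 5 called by limma). Striatal projection neuron markers were higher there in 10 of 10 (median 0.39, 2 called by limma). Progenitor markers were higher there in 9 of 12 (median 0.16, 1 called by limma). Choroid plexus and ciliated cell markers were higher in 6 of 8 (median 0.18, 1 called by limma). Endothelial markers were higher in 1 of 9 (median -0.23), and pericyte and smooth muscle markers in 0 of 4 (median -0.16). Telencephalon and neuron markers were higher in 3 of 6 (median -0.01). The part of these differences in the values of Dnajc5, Dnajc6 and the other members was not tested.

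The opposite side held Dnaja1, with 11.18 in hippocampus against 11.02 in forebrain after ethanol, and 11.07 in hippocampus against 10.94 in forebrain after PBS (limma adjusted p = 0.232). The J-domain proteins of the ribosome and nucleus, Dnajc2, Dnajc8, Dnajc9, Dnajc17 and Dnajc21, were higher in hippocampus in 4 of 5 after ethanol, with a median of 0.08, and in 5 of 5 after PBS, with a median of 0.12. Of all 11013 kept genes, 3344 were higher in hippocampus after ethanol and 5774 after PBS. After ethanol the count was 5 of 5 under median centring and under quantile normalization. In the vesicle group, Dnajc5, Dnajc6 and the endosomal Dnajc13, 3 of 3 were lower in hippocampus after ethanol, and 2 of 3 after PBS, or 3 of 3 under quantile normalization. At 1.3-fold 0 members were apart between the tissues after ethanol (background 0.772% higher and 3.31% lower in hippocampus) or after PBS (background 0.881% and 3.25%). At 1.2-fold after ethanol, Dnajb6 was higher (background 2.15%) and Dnajc5, Dnajc6 and Dnajc24 were lower in hippocampus (background 9.85%). At 1.2-fold after PBS, 0 members were higher (background 3.16%) and Dnajc6 and Dnajc12 were lower (background 6.46%). Dnajc12 was 0.12 lower in hippocampus after ethanol and 0.32 lower after PBS. Dnajb6 was 0.30 higher in hippocampus than in forebrain after ethanol and 0.10 higher after PBS.

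**Figure D4:**
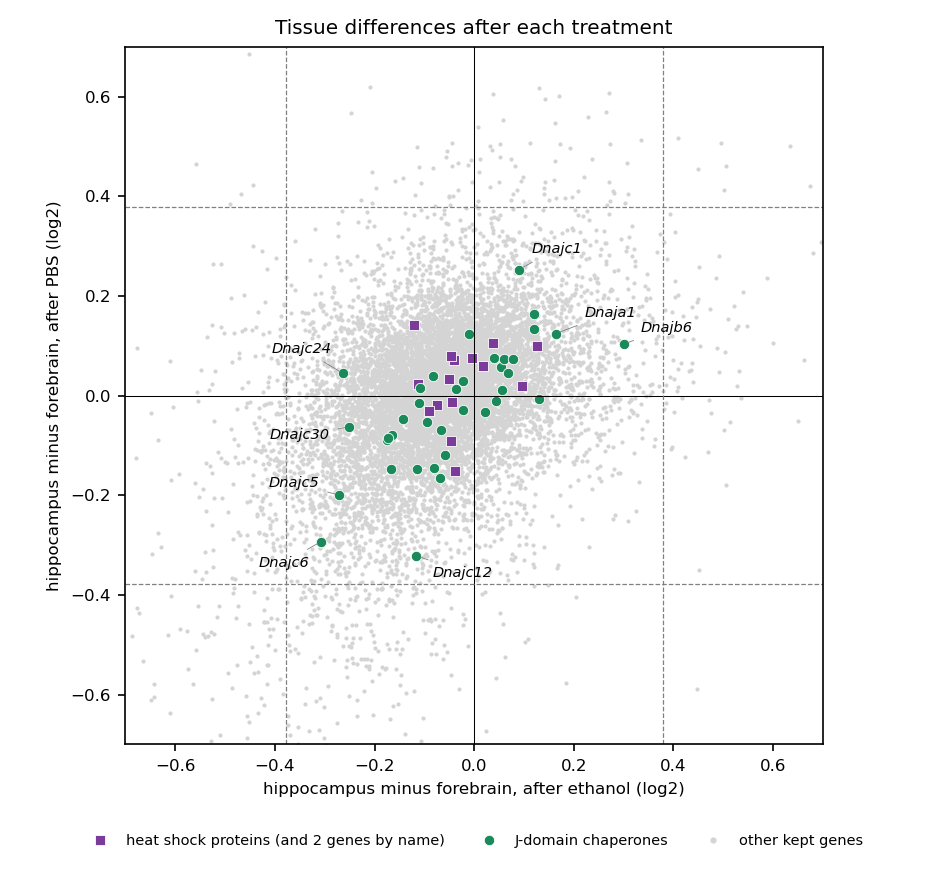
Hippocampus minus forebrain (log2) after ethanol (horizontal) and after PBS (vertical) for the kept genes, drawn as in the ethanol plot, with broken lines at 1.3-fold. Axes end at 0.7, which leaves 106 grey genes and 0 chaperone genes outside; Dnajc5 and Dnajc6 lie low on both axes and no chaperone gene passes a broken line.

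The partners of these chaperones gave no call either, and their medians in hippocampus were close to the -0.08 of all kept genes, of which 7632 of 11013 were lower. Of 34 heat shock factors and co-chaperones listed, 31 were kept, 11 higher and 20 lower after ethanol in hippocampus (median -0.06) while 16 of 31 were higher in forebrain (median 0.01). Hsf1, Bag2 and Bag3 were not among the 31, so Hsf1 itself was not assessed. The member Hspbp1 was counted again in this list. Of 14 cytosolic chaperonin and prefoldin subunits, which fold actin and tubulin, 4 were higher and 10 lower in hippocampus (median -0.06) and 6 higher and 8 lower in forebrain. Of 20 genes of the unfolded protein response of the reticulum, 19 were kept, with 4 higher and 15 lower in hippocampus (median -0.08) and 11 higher and 8 lower in forebrain. No gene of the 3 lists passed 1.3-fold in either tissue, and limma called 0 of them for ethanol or for tissue.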

How the data were processed

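Expression was measured on 4 Affymetrix mouse arrays, 1 each for hippocampus and forebrain after maternal ethanol or PBS, grouped by their titles. The authors deposited log2 values: no label names the scale, which was inferred from their span of 1.58 to 13.96. The submitters' processing notes name MAS5, with no version or settings. Array medians ran from 7.11 to 7.13, and the authors' scaling was kept.

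Of 35557 probe sets, 21789 had 1 symbol in the platform annotation, 1621 several and 12147 none, and only those with 1 were named. A further 10 probe sets that carry a member's symbol with another gene's were left out. All 72 members were in the RefSeq table (GRCm38.p6) and 0 symbols changed. A gene is its probe set with the highest mean, and 11013 of 19938 genes reached a mean of 7.11, the median of all probe sets. The 2 probe sets of Dnajc3 hold identical values.

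Within a tissue the log2 difference of 2 arrays was counted at 1.3-fold, with no test. For both tissues together, an additive model of treatment and tissue was fitted in limma 3.58.1 (R 4.3.3) using trended eBayes, and p-values were adjusted over 11013 genes by Benjamini-Hochberg at 0.05. Since 1 residual degree of freedom remains, eBayes drew most of each gene's error from the other genes, for a total of 7.53 degrees of freedom. The SEs and p-values therefore reflect only how far genes spread over these 4 arrays, and 1 array a group sets the precision. The fit was tested on simulated data with planted changes of 2-fold. These are larger than the mean difference of any member, so that test does not speak to the sizes reported here. The members and gene lists were chosen with earlier results of these data known. Members with values were named by a rule: the highest and lowest 8 by ethanol difference in each tissue, 6 by its mean, 8 by tissue difference and 5 by difference of the ethanol effects, all among members past the filter, and a set of well-known chaperones whatever their values. Of the members under this rule, Dnaja4, Dnajb14, Dnajc4, Dnajc27 and Hspb6 were left out of the text. Dnajb2 and Dnajc25 were given only by their level, and Dnajc9 and Dnajc21 only within a group. Dnajb4, Dnajc2, Dnajc7 and Dnajc13, the markers Neurod6 and Emx1, the gene Eif2s3y, and members below the filter or just at it were named after their values were seen. Tables and figures were made in Python 3.11.15 (numpy 2.4.6, pandas 2.3.3, matplotlib 3.10.9).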

Additional observations from a re-analysis of the deposited data

How the results depend on the processing

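Each count was recomputed with median centring, quantile normalization, no filter on low values, a 75th percentile filter, the mean of all probe sets of a gene, folds of 1.2, 1.5 and 2, and eBayes without a trend. In hippocampus the count of members at least 1.3-fold higher was 1, and it was 5 with no filter (4% of 19938 genes), 0 with the 75th percentile filter, and 0 at 1.5-fold and 0 at 2-fold. The count lower there was 0, and 4 at 1.2-fold. In forebrain the count lower was 1, and 0 with the 75th percentile filter, 0 at 1.5-fold and 0 at 2-fold. Between tissues limma called 0 members lower in hippocampus, 2 after quantile normalization (Dnajc5 and Dnajc6) and 1 with the 75th percentile filter (Dnajc6), where fewer genes were tested. Otherwise the cause was not tested. The other 46 counts stayed within 1.5 times, or at 0 where the main count was 0. Among them are counts of 0 that could not rise at 1.5-fold or 2-fold, which say nothing about stability. Of the values of named members and the 2 medians over members, 358 moved by less than the spread or kept their side of the threshold, 66 moved and 3 passed it. A filter cannot change a member's log2 difference within a tissue. The mean of probe sets can do so only for the 8 members with several probe sets. The 358 therefore include values that could not move, and the count does not measure stability. No value past a threshold changed sign. Among the 53 members, the ethanol difference changed sign for 16 in hippocampus and 7 in forebrain under median centring, and for 10 and 6 under quantile normalization. The pseudocount alternative was not run, since the values were already on the log2 scale. No paired analysis was possible because the labels give no replicate numbers, beyond the pairing by tissue that the limma fit already holds.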

Other observations

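The 15 probe sets named Dnajc13, a J-domain protein of endosomes, gave different answers: 5 were higher after ethanol in hippocampus and 9 in forebrain, with differences from -0.37 to 0.06 in hippocampus and from -0.04 to 0.21 in forebrain. Of the 3 probe sets of Hspa8, 2 were higher after ethanol in hippocampus and 3 in forebrain. The array on which a kept member was lowest was hippocampus after ethanol for 20 of the 53, hippocampus after PBS for 12, forebrain after ethanol for 10 and forebrain after PBS for 11. The same count over all kept genes was not made. The hippocampus ethanol array also had the lowest median over all kept genes, 8.57 against 8.66 to 8.68 on the others. Hspb8, a small heat shock protein that works with Bag3 in autophagy and lay just below the filter, measured 6.86 in hippocampus against 7.26 in forebrain after ethanol, and 6.94 in hippocampus against 7.26 in forebrain after PBS.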
